A study of Mus musculus with 4 samples.

Results

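The 10 genes described here encode brakes on mitogen-activated protein (MAP) kinase signalling: the dual-specificity phosphatases Dusp1, Dusp2, Dusp4, Dusp5, Dusp6, Dusp7 and Dusp10, and the membrane-bound inhibitors Spry1, Spry2 and Spred1. They are 10 of 45232 gene rows in the count files, and all 10 were among the 15320 genes that passed the filter on low counts. The list was selected on earlier results of the same comparison, in which Dusp4 was among the genes with the smallest p. Differences between the groups in these 10 genes are therefore given as a description and are not used as tests.

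RNA came from mouse LSK cells, the blood-forming fraction without lineage markers and with Kit and Sca-1 on the surface in which blood stem cells and early progenitors are found. They expressed GFP and were sorted 3 months after long-term haematopoietic stem cells had been transplanted. The donor stem cells had received a scrambled control (Scr) in one group and a miR-99 microRNA knockdown (miR-99 KD) in the other, so both groups share the GFP label and the transplantation. Each group had 2 mice and 2 libraries. The labels used here do not give the strain, the age or the knockdown construct, and say nothing of the cells without GFP that each host still had.

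MAP kinase cascades carry signals from cell-surface receptors to the nucleus through a relay of kinases that ends in ERK, p38 or JNK. ERK, driven through Ras, Raf and MEK, is switched on when cytokines such as stem cell factor bind their receptors. Dual-specificity phosphatases remove phosphate from both a threonine and a tyrosine of an active MAP kinase and so switch it off. Sprouty and Spred proteins act further up, between the receptor and Raf. Many of these genes are themselves transcribed in response to ERK, which makes them negative feedback genes.

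The libraries held 27295197 to 32350590 gene counts. None of the 15320 genes tested, 0.0%, passed the main test, the quasi-likelihood F test of edgeR at a Benjamini-Hochberg adjusted p of 0.05. At an unadjusted p under 0.05 the same test counted 9.63% of genes lower and 5.97% higher in miR-99 KD. DESeq2, the alternative test, called 4.13% of genes lower and 1.66% higher. A gene is called apart, lower or higher, where each miR-99 KD library lies on the same side of each Scr library. Of all genes, 26.0% were apart and lower and 24.5% apart and higher, and these shares are the background for the counts that follow. Log2 differences are miR-99 KD minus Scr, from edgeR, each with its SE and n = 2 per group. The labels give the mice per group but not how the libraries were spread over them. In bulk RNA, fewer cells of a type and less RNA per cell cannot be told apart.

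The microRNAs of the family share 1 seed, the stretch from base 2 to base 8 by which a microRNA pairs with its targets. The mature sequences, from RefSeq on GRCm38.p6, are shown because the seed defines the letters searched for in the members; it is in capitals.
mmu-miR-99a-5p: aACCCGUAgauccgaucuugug
mmu-miR-99b-5p: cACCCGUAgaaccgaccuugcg
mmu-miR-100-5p: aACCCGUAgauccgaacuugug
The site that pairs with bases 2 to 8 reads TACGGGT, and the site that pairs with bases 2 to 7 and has A opposite base 1 reads ACGGGTA. Neither was found in the annotated 3′ untranslated regions of any of the 10 genes, which ran from 581 bases in Dusp2 to 4330 bases in Spred1. Among 12857 tested genes with such a region of at least 50 bases in GENCODE M21, 3.1% held at least 1 site of either form. The absence of these letters in these windows says nothing about other forms of pairing.

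Promoter sequence from RefSeq, 250 bases before to 50 after the transcription start, was held for 9 of the 10 genes, Dusp4 being the exception. It was searched on both strands for TGACGTCA (the cyclic AMP response element), TGANTCA (AP-1), CCGGAAGT (ETS), GCGNGGGCG (EGR) and the CArG box of serum response factor. These motifs bind factors that act downstream of MAP kinases. Each motif that was found occurred in 1 of the 9 genes. The windows of Dusp1, Dusp2 and Dusp5 from 150 bases before the start are shown because they hold them, with the motif in capitals.
Dusp1, chr17:26508473-26508622, minus strand: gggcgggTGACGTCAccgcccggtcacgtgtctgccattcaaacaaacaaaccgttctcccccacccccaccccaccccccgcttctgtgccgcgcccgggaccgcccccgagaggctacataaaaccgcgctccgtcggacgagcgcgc
Dusp2, chr2:127336009-127336158, plus strand: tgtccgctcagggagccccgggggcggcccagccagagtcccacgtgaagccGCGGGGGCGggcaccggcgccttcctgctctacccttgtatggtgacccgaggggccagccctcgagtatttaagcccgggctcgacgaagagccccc
Dusp5, chr19:53528995-53529144, plus strand: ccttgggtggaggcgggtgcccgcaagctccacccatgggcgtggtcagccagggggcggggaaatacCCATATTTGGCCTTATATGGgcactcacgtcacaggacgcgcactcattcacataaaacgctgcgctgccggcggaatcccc
The Dusp1 window held the cyclic AMP response element with its first base at -143 from the start, and 1.79% of all 32851 promoters in the table held that motif. The EGR motif of Dusp2 began at -98, and 5.55% of promoters held it. Dusp5 held a pair of adjoining CArG boxes that began at -82 and -72, and 1.63% of promoters held at least 1. AP-1 and ETS motifs, found in 7.81% and 3.89% of all promoters, were in none of the 9. A match is a string of letters and was not tested for binding. Coordinates are on GRCm38.p6, whereas the counts were made on mm9.

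Dusp1, Dusp2, Dusp4 and Dusp5 encode the inducible phosphatases of the nucleus, and all 4 were apart and lower in miR-99 KD. Dusp4 (ENSMUSG00000031530), which acts on ERK and on JNK, had 597 and 400 reads in Scr 1 and Scr 2, and 31 and 34 reads in miR-99 KD 1 and miR-99 KD 2. Scaled to CPM, read counts relative to the library total with TMM scaling, these were 17.8 and 13.7 CPM in Scr against 1.18 and 1.28 CPM in miR-99 KD. The lower of the Scr libraries thus stood far above both miR-99 KD libraries, which lay close to each other. The log2 difference of Dusp4 was -3.68 ± 0.31, a level 12.8-fold lower. Of 15320 genes it ranked 2 by p and 72 from the most negative log2 difference. By CPM it ranked 8396 and 8851 among the tested genes in Scr against 12721 and 12484 in miR-99 KD. Dusp4 moved from the eighth to the last place among the 10 genes in level per kilobase.

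Dusp1 (ENSMUSG00000024190), an immediate early gene whose product acts on p38, JNK and ERK, was the most abundant of the 10. It stood at 458 and 530 CPM in the Scr libraries and at 328 and 269 CPM in the miR-99 KD libraries. The groups did not overlap, and the log2 difference was -0.73 ± 0.17, a level 1.66-fold lower. By CPM, Dusp1 ranked 226 and 172 among the tested genes in Scr against 500 and 719 in miR-99 KD. Exons of Ergic1 on the other strand overlap those of Dusp1 in GENCODE M21, and reads of the pair cannot be told apart unless strand was used in counting. Ergic1 itself had 4502, 4277, 2966 and 2946 reads in Scr 1, Scr 2, miR-99 KD 1 and miR-99 KD 2, beside 15315, 15446, 8642 and 7146 reads of Dusp1.

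Dusp2 (ENSMUSG00000027368), an ERK and p38 phosphatase of activated blood cells, stood at 113 and 144 CPM in Scr and at 68.7 and 92.7 CPM in miR-99 KD. Its log2 difference was -0.67 ± 0.21. Dusp5 (ENSMUSG00000034765), which is selective for ERK, stood at 34.04 and 41.3 CPM in Scr and at 32.0 and 28.6 CPM in miR-99 KD. Here the groups were apart by a small margin, with Scr 1 and miR-99 KD 1 nearly level, and the log2 difference of -0.32 ± 0.19 was less than 2 SE from 0. Exons of the antisense gene AC137853.2 overlap Dusp5 in GENCODE M21 and was not analysed here.

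Of the cytoplasmic, ERK-selective phosphatases, Dusp6 was apart and lower and Dusp7 overlapped. Dusp6 (ENSMUSG00000019960), a feedback gene of ERK, stood at 144 and 117 CPM in Scr and at 106 and 83.9 CPM in miR-99 KD. The groups did not overlap, but Scr 2 and miR-99 KD 1 were closer than the libraries within either group. The log2 difference was -0.46 ± 0.19. Dusp7 (ENSMUSG00000053716) stood at 27.6 and 39.5 CPM in Scr and at 43.1 and 28.7 CPM in miR-99 KD. Each group thus had a higher and a lower library, and the log2 difference of 0.10 ± 0.29 was within that spread. The difference between Dusp6 and Dusp7 was not tested.

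Dusp10 (ENSMUSG00000039384), which acts on p38 and JNK rather than ERK, was low in all libraries, at 4.12 and 5.46 CPM in Scr and at 2.58 and 5.23 CPM in miR-99 KD. Only miR-99 KD 1 stood apart, and the groups overlapped. Its log2 difference was -0.29 ± 0.46, and 0.13 without miR-99 KD 1.

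**Figure D1:**
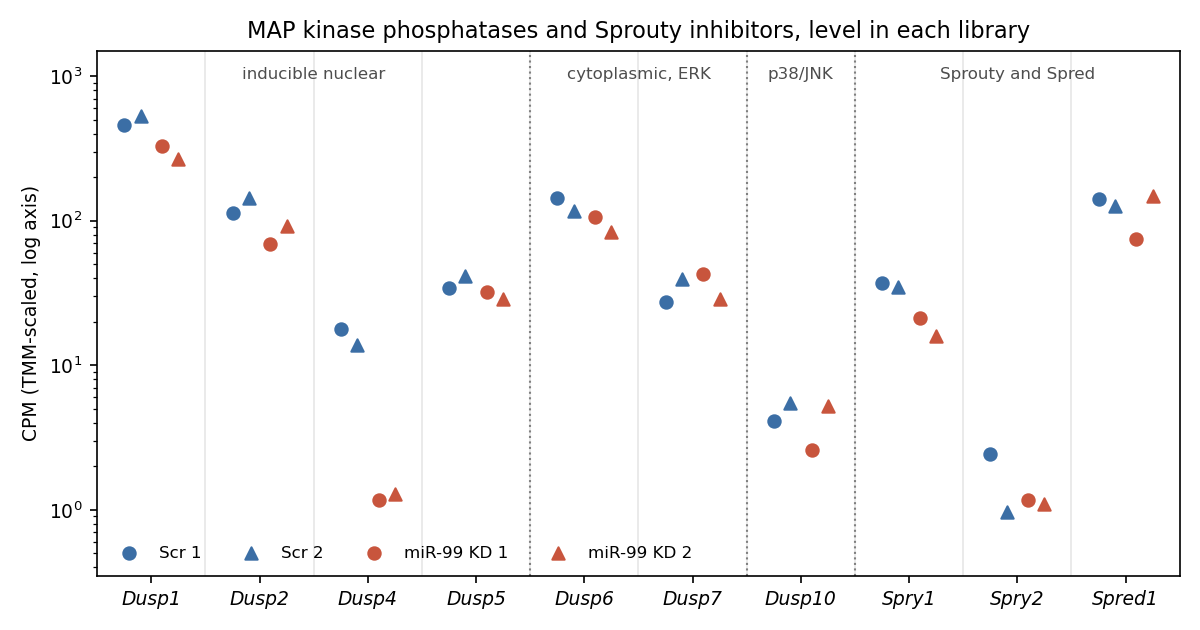
Level of each of the 10 genes in each library, as TMM-scaled CPM on a log axis, with Scr in blue and miR-99 KD in red; circles are libraries numbered 1 and triangles libraries numbered 2. Dusp4 shows the widest gap between the groups, at 13.7 CPM or more in Scr and 1.28 CPM or less in miR-99 KD, whereas Dusp7, Dusp10, Spry2 and Spred1 overlap.

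Of the Sprouty and Spred genes, Spry1 differed between the groups beyond their spread and Spry2 and Spred1 did not. Spry1 (ENSMUSG00000037211), an inhibitor of receptor signalling to Ras and Raf, stood at 37.0 and 34.7 CPM in Scr and at 21.1 and 15.9 CPM in miR-99 KD. The Scr libraries were nearly equal and both miR-99 KD libraries were lower, with a log2 difference of -0.96 ± 0.22, a level 1.94-fold lower. Gm42922, on the other strand, overlaps Spry1 and had at most 13 reads in a library, against 422 or more of Spry1.

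Spry2 (ENSMUSG00000022114) was near the lower limit of the filter, with 81 and 28 reads in Scr against 31 and 29 in miR-99 KD. Scr 1, at 2.42 CPM, was alone in standing higher, since Scr 2 was at 0.961 CPM and the miR-99 KD libraries at 1.18 and 1.09 CPM. The log2 difference of Spry2 was -0.58 ± 0.66, and without Scr 1 it was 0.21. Spred1 (ENSMUSG00000027351), which recruits the Ras brake neurofibromin to the membrane, stood at 142 and 126 CPM in Scr. In miR-99 KD it was 74.7 CPM in library 1 and 148 CPM in library 2, the lowest and the highest value of the 4. Its log2 difference was -0.27 ± 0.33, and 0.14 without miR-99 KD 1.

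In all, 6 of the 10 genes were apart and lower in miR-99 KD, 0 were apart and higher and 4 overlapped, beside 26.0% of all tested genes apart and lower. By role these were 4 of 4 inducible nuclear phosphatases, 1 of 2 cytoplasmic ones, 0 of 1 directed at p38 and JNK, and 1 of 3 Sprouty and Spred genes. The median log2 difference of the 10 genes was -0.52, and that of all 15320 genes was 0.02. The main test called 0 of the 10, 4 were lower at an unadjusted p under 0.05 against 9.63% of all genes, and DESeq2 called 3, which were Dusp1, Dusp4 and Spry1, against 4.13%. Without the filter edgeR did call 4 of the 10 (Dusp1, Dusp2, Dusp4 and Spry1), beside 1064 genes in all out of more than 15320. Since this comparison chose the genes, these shares describe the list and support nothing. The 6 genes that did not overlap were also apart under both other scalings. Leaving out a library cannot by itself make such groups overlap, so that setting does not check these 6 genes. DESeq2's calls moved with the libraries. With the replicate block it called 2 of the 10, Dusp1 and Dusp4, beside 390 of the 15320 genes. Over all alternatives the log2 difference ran from -3.87 to -3.51 for Dusp4, from -0.879 to -0.591 for Dusp1 and from -1.18 to -0.765 for Spry1.

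**Figure D2:**
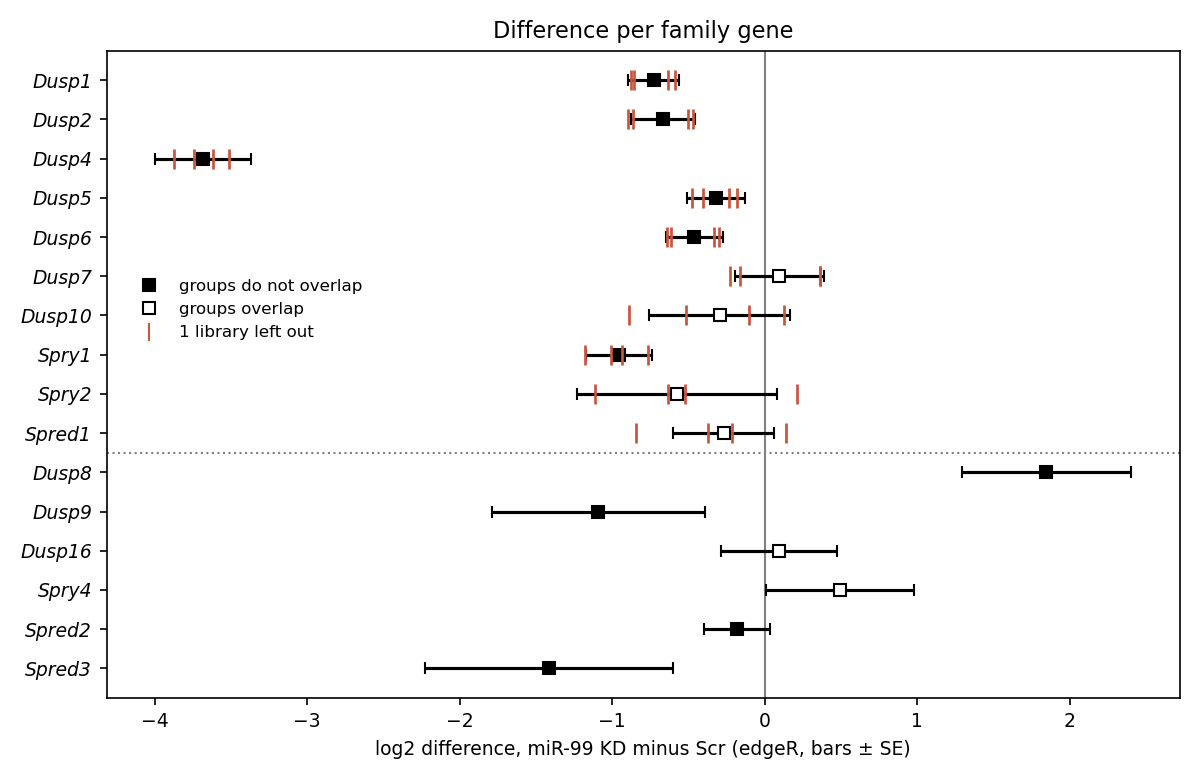
Log2 difference between the groups, miR-99 KD minus Scr, for the 10 genes above the dotted line and 6 relatives below it; squares are edgeR's estimates with bars of 1 SE, filled where the groups do not overlap, and red ticks are the values with 1 library left out. Ticks are drawn for the 10 genes only, not for the relatives. Those of Dusp7, Dusp10, Spry2 and Spred1 fall on both sides of 0, and those of the other 6 of the 10 stay below it.

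The members' levels can be compared with each other only per length, so CPM were divided by the exonic length of each gene in GENCODE M21. In Scr the order by this measure, with the mean CPM per kilobase of each, began with Dusp1 at 149, Dusp2 at 64.0 and Dusp6 at 41.6. Spred1 at 19.8, Dusp5 at 15.2 and Spry1 at 12.3 formed the middle with Dusp7, at 8.23 in Scr 1 and 11.8 in Scr 2. Dusp4 at 5.76, Dusp10 at 1.58 and Spry2 at 0.810 were the lowest. Each neighbour in this order was separated from the next in the Scr libraries, in that the lower value of one was above the higher value of the other, though with n = 2 this is a weak criterion. In Spry1 against Dusp7 the margin was between 11.96 and 11.8 CPM per kilobase. In miR-99 KD the first 5 genes kept their order, Dusp7 stood above Spry1, and Dusp4 at 0.448 CPM per kilobase stood below Dusp10 at 1.28 and Spry2 at 0.543.

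The summed level of the 7 phosphatases was 270.2 and 304.5 CPM per kilobase in Scr against 194 and 177 in miR-99 KD. Dusp1 made up 51.2% and 52.6% of that sum in Scr against 51.0% and 46.0% in miR-99 KD. The 12.8-fold lower Dusp4 thus contributed little to the total, which followed Dusp1, Dusp2 and Dusp6. The summed level of Spry1, Spry2 and Spred1 was 34.9 and 31.1 CPM per kilobase in Scr against 18.8 and 27.8 in miR-99 KD. Spred1 supplied 58.5% to 78.5% of it.

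Within a group, the gap between the libraries in log2 CPM had a median over the 10 genes of 0.32 in Scr and 0.37 in miR-99 KD. Over all tested genes the medians were 0.23 and 0.33. Spry2 had the widest gap within Scr, 1.25, and Dusp10 and Spred1 had the widest within miR-99 KD, 0.99 each. Those 3 genes are among the 4 whose groups overlapped.

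Over the 4 libraries, the genes nearest to Dusp4 by the root mean square difference of log2 CPM, each centred on its own mean, were Gprc5a at 0.23, Dok4 at 0.24, Cfap54 at 0.26, Gm37368 at 0.27 and Sel1l3 at 0.30. All 5 had 2.15 CPM or less in every library, and the miR-99 KD libraries held 0.151 CPM or less of each. At such levels the distance depends on the 0.1 CPM added before taking logs. In the same order, their log2 differences were -7.54, -6.24, -4.03, -5.84 and -5.28, against -3.68 for Dusp4. In all, 32 of the tested genes lay within 0.5 of Dusp4.

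The relatives outside the list did not share 1 direction. Dusp8, a phosphatase of JNK and p38, stood at 1.82 and 0.927 CPM in Scr, from 61 and 27 reads, and at 6.41 and 3.54 CPM in miR-99 KD, from 169 and 94 reads. It was apart and higher by 1.85 ± 0.55, with an edgeR adjusted p of 0.251 and a DESeq2 adjusted p of 0.0865. Dusp9, selective for ERK, stood at 1.55 and 1.68 CPM in Scr and at 1.10 and 0.414 CPM in miR-99 KD. Dusp16, a JNK phosphatase, overlapped at 6.63 and 4.19 CPM against 4.85 and 6.70 CPM. None of these 3 passed edgeR or DESeq2.

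Of the other Sprouty and Spred genes, Spry4 was 4.42 and 7.999 CPM in Scr and 5.76 and 11.7 CPM in miR-99 KD, with overlapping groups. Spred3 was 3.02 and 3.23 CPM in Scr and 0.379 and 1.96 CPM in miR-99 KD. Spred2 was 16.4 and 14.8 CPM in Scr and 13.4 and 14.1 CPM in miR-99 KD, a margin of under 1 CPM. None of the 3 passed either test, with edgeR adjusted p of 0.441 to 0.708. Spry3 was not analysed here.

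The atypical dual-specificity phosphatases, a branch that lacks the MAP kinase docking domain of the 10 genes' phosphatases, were tested in 8 of 12. Among them 2 were lower without overlap, 4 higher and 2 overlapped. Dusp18 stood at 8.79 and 7.21 CPM in Scr and at 1.48 and 1.47 CPM in miR-99 KD, a difference of -2.44 ± 0.34 on the log2 scale. Its edgeR adjusted p was 0.197, which did not pass, and its DESeq2 adjusted p was 5.5e-05. Dusp11, an RNA phosphatase, stood at 138 and 135 CPM in Scr and at 166 and 244 CPM in miR-99 KD, with an edgeR adjusted p of 0.295. Dusp12 and Dusp19, next by p, were each higher by 0.44 on the log2 scale, with edgeR adjusted p of 0.368 and 0.411. Dusp14 and Dusp15 had 0 reads in all 4 libraries.

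No gene of the kinase relay passed edgeR or DESeq2. Of 15 genes for Ras, Raf, MEK and ERK, 7 were apart and higher in miR-99 KD, 2 apart and lower and 6 overlapped, with a median log2 difference of 0.18. Hras stood at 42.8 and 51.9 CPM in Scr and at 69.5 and 72.4 CPM in miR-99 KD, with an edgeR adjusted p of 0.248. Araf, a Raf kinase, was among the lower ones at 135 and 147 CPM against 117 and 119 CPM. Ksr1, a scaffold of the relay, stood at 1.67 and 3.502 CPM against 5.31 and 4.48 CPM.

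Of 16 receptor adaptors and Ras activators, 3 were lower without overlap, 2 higher and 11 overlapped, and no gene passed either test. Gab3, a docking protein, stood at 6.16 and 6.11 CPM in Scr and at 10.7 and 10.6 CPM in miR-99 KD. Of 16 genes of the p38 and JNK relays, 6 were lower without overlap, 3 higher and 7 overlapped, and no gene passed either test. Map2k4, a kinase that activates JNK and had the smallest p of that list, stood at 127 and 122 CPM in Scr and at 148 and 157 CPM in miR-99 KD. Mapk14, the main p38 kinase and next by p, went the other way, at 286 and 309 CPM in Scr and at 255 and 234 CPM in miR-99 KD.

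Ras GTPase-activating proteins and other brakes on signalling went in different directions. Of 16, 8 were lower without overlap, 4 higher and 4 overlapped, with a median log2 difference of -0.14. DESeq2 called 3 of them, each lower, and edgeR called 0, with 4 lower and 0 higher at an unadjusted p under 0.05. Rasa3, a Ras and Rap GTPase-activating protein, stood at 149.6 and 214 CPM in Scr and at 99.2 and 72.1 CPM in miR-99 KD, with an edgeR adjusted p of 0.225 and a DESeq2 adjusted p of 0.0031. Rasal3, a relative in blood cells, stood at 147 and 225 CPM against 97.5 and 92.2 CPM, with a DESeq2 adjusted p of 0.0053. Dok2, an adaptor that recruits a Ras GTPase-activating protein, stood at 37.1 and 53.1 CPM against 24.03 and 15.2 CPM, with a DESeq2 adjusted p of 0.013. Rasa1, the fourth by p, stood at 86.8 and 104 CPM against 71.0 and 68.6 CPM and passed neither test. Nf1, the gene of the neurofibromin that Spred1 recruits, stood higher at 8.95 and 14.8 CPM in miR-99 KD against 5.11 and 7.35 CPM in Scr, with an edgeR adjusted p of 0.326.

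**Figure D3:**
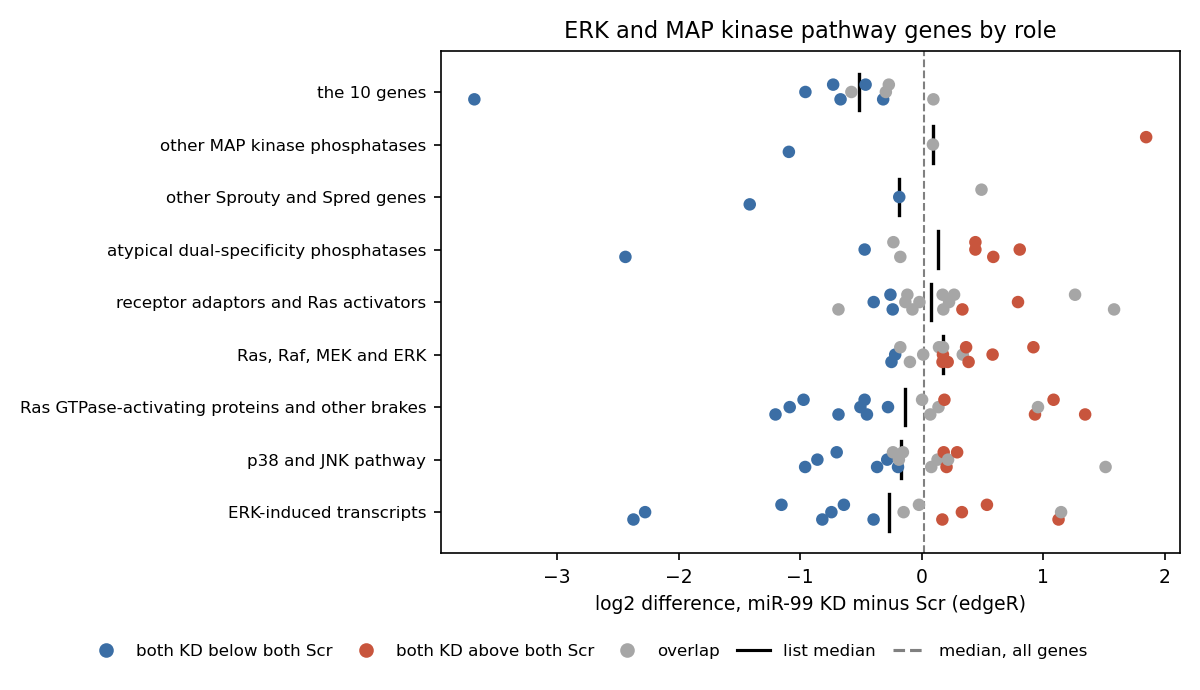
Log2 difference between the groups, miR-99 KD minus Scr, for each tested gene of the 10-gene list and of 8 lists of related genes; colour marks genes whose libraries do not overlap, black bars are list medians and the dashed line is the median of all tested genes, 0.02. The 10 genes have a median of -0.52, the ERK-induced transcripts -0.27 and the Ras, Raf, MEK and ERK genes 0.18.

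Transcripts that ERK induces were read beside the feedback genes. Of 16 listed, 14 were tested, of which 7 were lower without overlap, 4 higher and 3 overlapped, with a median log2 difference of -0.27. DESeq2 called 5, each lower, and edgeR called 0, with 7 lower and 1 higher at an unadjusted p under 0.05. Etv4, an ETS factor used like Dusp6 and Spry genes as a readout of ERK output, stood at 4.33 and 3.71 CPM in Scr and at 0.493 and 1.05 CPM in miR-99 KD. Its edgeR adjusted p was 0.227 and its DESeq2 adjusted p was 0.024. Etv5, its close relative, stood at 37.7 and 52.4 CPM against 25.02 and 15.5 CPM, with a DESeq2 adjusted p of 0.019.

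Fos, a component of AP-1, stood at 1336 and 1127 CPM in Scr and at 642 and 831 CPM in miR-99 KD, with an edgeR adjusted p of 0.227 and a DESeq2 adjusted p of 0.0059. Junb, its partner, stood at 385 and 470 CPM against 299 and 249.6 CPM. Ier3, the fifth gene that DESeq2 called, stood at 63.2 and 65.8 CPM against 28.9 and 44.4 CPM. Myc and Phlda1, also ERK-induced, went the other way. Myc stood at 556 and 551 CPM in Scr and at 704 and 689 CPM in miR-99 KD, and Phlda1 at 4.84 and 5.15 CPM against 7.28 and 7.23 CPM. Neither passed a test, with edgeR adjusted p of 0.308 for Myc and 0.405 for Phlda1.

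Lists that mark cell types and sample handling moved with the groups in part. Genes induced when tissue is dissociated, of which Fos, Junb and Ier2 are also in the ERK-induced list, were lower without overlap in 8 of 12, higher in 0 and overlapped in 4. Their summed level was 3748 and 4071 CPM in Scr and 2178 and 2552 CPM in miR-99 KD. Dusp1 is induced by the same handling, and the part of handling in its difference was not tested. The stem cell list was lower without overlap in 8 of 11, higher in 1 (Hoxb5) and overlapped in 2 (Slamf1 and Mllt3), with sums of 1764 and 1800 CPM in Scr and 888 and 1061 CPM in miR-99 KD. Erythroid and megakaryocytic markers were higher in 6 of 12, at 5233 and 4544 CPM in Scr and 7732 and 8569 CPM in miR-99 KD. The part of a shift between these cell states in the members' differences was not tested. Most of that stem cell sum was Kit, a sort marker and the receptor of stem cell factor, which early progenitors also express. Kit stood at 1149 and 1280 CPM in Scr and at 670 and 774 CPM in miR-99 KD. Its log2 difference was -0.75 ± 0.15, with an edgeR adjusted p of 0.213 and a DESeq2 adjusted p of 0.00029. The part of Kit in the members' differences was not tested. Ly6a, the gene of the sort marker Sca-1, was present in all libraries at 12.4 to 46.5 CPM.

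Of the lists for other cell types, those of neutrophils and B cells set miR-99 KD 1 apart. Whether their RNA came from cells outside the sort gate was not tested. All 12 neutrophil genes and all 10 B cell genes were highest in that library. The same held for 4 of 10 macrophage genes, 3 of 8 mast cell and basophil genes and 4 of 10 endothelial and stromal genes. The neutrophil sum was 29630 CPM in miR-99 KD 1 and 5268 to 8434 CPM in the other libraries, and the B cell sum was 306 CPM against 41.9 to 90.8 CPM. B cell genes also differed between the groups: 4 of 10 were higher without overlap in miR-99 KD, 0 were lower and 6 overlapped. DESeq2 called 3 of these, Ebf1, Vpreb1 and Igll1, with log2 differences from edgeR of 2.63, 2.72 and 2.35, and edgeR called 0, with 3 higher at an unadjusted p under 0.05. Of T and NK cell genes, Ncr1 was at 0 reads in all 4 libraries and Cd3e, Cd3g, Cd8a and Cd5 in some, and 7 of 10 were highest in miR-99 KD 1. Cd3e had 38 reads in that library, 5 in Scr 1 and 0 in the others. The sums of the T and NK cell list, 223 and 229 CPM in Scr and 167 and 126 CPM in miR-99 KD, were mostly Nkg7, at 207, 194, 146 and 114 CPM. The macrophage list summed to 588 and 254 CPM in Scr and 724 and 424 CPM in miR-99 KD, with Marco at 0 in 1 library. In Scr 1, Scr 2, miR-99 KD 1 and miR-99 KD 2, Tpsb2 had 1264, 0, 0 and 677 reads and Cma1 had 394, 0, 4 and 583. Both belong to the mast cell and basophil list, which summed to 268 to 397 CPM. That sum was mostly Gata2, at 276, 228, 219 and 258 CPM in the same order of libraries. The basophil genes Prss34 and Mcpt8 of that list were highest in miR-99 KD 1. Prss34 had 5, 0, 873 and 0 reads, and Mcpt8 stood at 4.39, 5.73, 27.6 and 4.44 CPM, in the same order. The endothelial and stromal list summed to 183 to 264 CPM, with Cdh5 and Kdr at 0 in some. Without miR-99 KD 1 the log2 differences of Dusp1, Dusp4, Dusp6 and Spry1 were -0.88, -3.62, -0.64 and -1.18, and that of Dusp2 was -0.47.

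**Figure D4:**
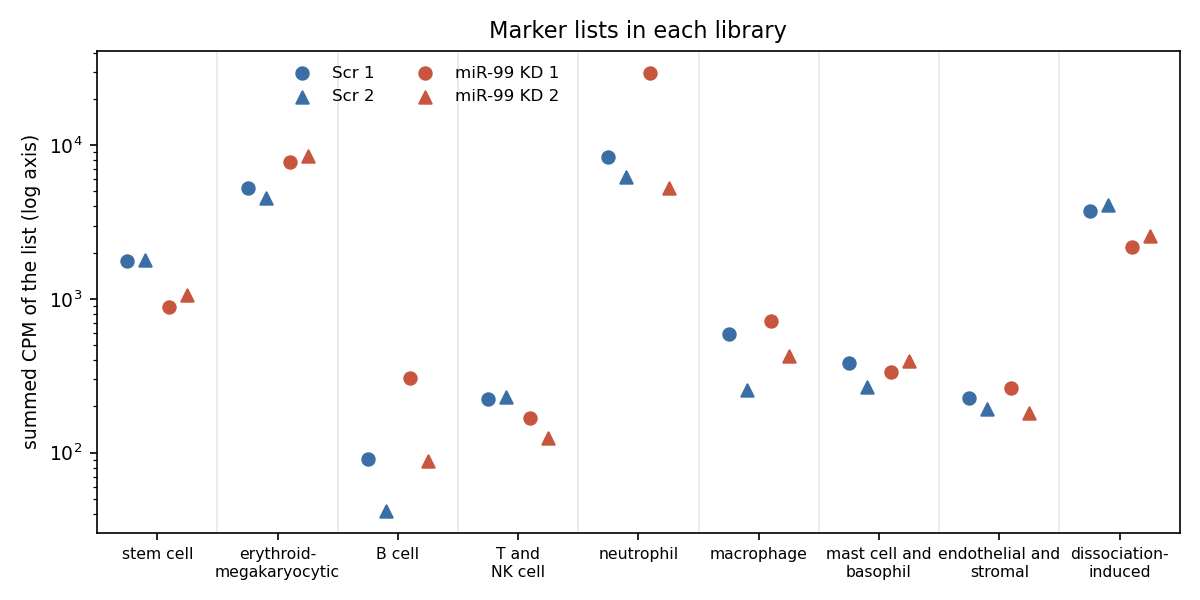
Summed CPM of each marker list in each library, on a log axis, with Scr in blue and miR-99 KD in red and library numbers as circles and triangles. The neutrophil list stands at 29630 CPM in miR-99 KD 1 against 5268 to 8434 CPM elsewhere, and the dissociation-induced and stem cell lists are lower in both miR-99 KD libraries.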

How the data were processed

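Libraries were made from total RNA by SMARTer amplification, per the labels' protocols. Each deposited file holds read counts of 1 library by Ensembl gene identifier, not normalized and not pooled. The submitters' processing notes name STAR, Picard, HTSeq and DESeq2 and the build mm9. Versions, annotation, strand setting and the handling of PCR copies are not stated there.

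Of 45232 gene rows, 44585 matched a symbol. Rows that name no gene were left out, and reads without a feature made up 8.31% to 13.8%. The main test was edgeR 4.0.16 in R 4.3.3 (quasi-likelihood, TMM, filterByExpr, Benjamini-Hochberg over 15320 genes), fitted on the 4 libraries without a replicate block. DESeq2 1.42.0 left 2377 adjusted p without a value. Alternatives were other scalings, no filter, a prior count of 2, the block and leaving out each library. Nothing says how libraries map to mice, so p-values measure the spread between libraries.

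The members and lists were chosen with earlier results of these data known. The rule named the 10 members, their relatives, up to 4 genes per other pathway list by edgeR p and the 5 genes nearest to Dusp4. Ier3, Myc, Phlda1, Nf1, Dusp14 and Dusp15 were chosen after their values were seen. One gene that the rule names is not reported here. Gaps and distances use log2(CPM + 0.1). Symbols, lengths and untranslated regions came from GENCODE M21.

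Rows pasted below the gene counts carry other library names, "Scr-2" in the file titled Scr 1, "Zip99a-2" in that titled miR-99 KD 1 and "Zip99a-1" in that titled miR-99 KD 2, each with that file's own gene total. The last file also carries "Scr-1" with a total that equals that of none of the 4 libraries. The pasted names keep the groups of the titles but not the numbers, and the titles were followed. Libraries of the same number correlated at 0.11 in their deviations from the group means. With 2 libraries per group, both pairs give this same value by construction.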

Additional observations from a re-analysis of the deposited data

How the results depend on the processing

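The members apart and lower numbered 6 under every scaling and without the filter. Without each library they numbered 6 to 8, a count that leaving out a library can raise but, scaling aside, cannot lower. The median log2 difference of the members was -0.68 to -0.45 over all alternatives. The genes that edgeR called numbered 0 under both other scalings and with the replicate block, 887 by DESeq2 instead, 1064 without the filter, and from 0 to 1013 with a library left out (1013 without miR-99 KD 1, 437 without miR-99 KD 2). For the other pathway genes the counts were 0, 9 by DESeq2, 11 without the filter, and 0 to 10 with a library left out. edgeR's 2390 genes at an unadjusted p under 0.05 became 2049 with the replicate block and 783 to 4342 with a library left out. DESeq2's 887 became 390 with the replicate block, and 27 to 1506 with a library left out (27 and 131 for the Scr libraries); its 3 members became 2 with the block and 1 to 4. Signs turned for Dusp7 without Scr 1 (-0.16) or miR-99 KD 1 (-0.23; highest 0.37), Dusp10 and Spred1 without miR-99 KD 1 (0.13 and 0.14; lowest -0.89 and -0.84), and Spry2 without Scr 1 (0.21; lowest -1.11). Of 144 list counts, 44 moved by over 1.5 times. The cause was not tested. The library numbers were not taken as pairs. A lone library was given the other group's spread. DESeq2 fits on fewer libraries or with the block, and unadjusted counts, were chosen after seeing the data. Counts under 100 reads limit Dusp4 in miR-99 KD, Dusp10 in miR-99 KD 1, and Spry2.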
